A study of Gallus gallus with 3 samples.

Results

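The genes described here encode the molecules by which animal cells hold on to one another and to the surrounding matrix. They were chosen by symbol: cadherins (CDH), protocadherins (PCDH), claudins (CLDN), integrin chains (ITGA, ITGB), syndecans (SDC), collagens (COL), laminin chains (LAMA, LAMB, LAMC), thrombospondins (THBS), NCAM genes, TNC, FN1 and ALCAM. Of 43590 probes on the chicken expression array, 203 probes for 72 genes matched through a RefSeq accession. Of these, 110 probes for 54 genes were well above background on at least 1 array and were used as members. The rule itself used names and detection and no difference between the cell lines.

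The 3 samples came from DT40, a chicken B-cell lymphoma line with efficient homologous recombination that is grown in suspension. The first was wild-type DT40. The second was a double knock-out (DKO) line carrying H2A.Z1, the full-length histone variant, and the third was a DKO line carrying H2A.Z1ΔC, in which the C-terminus is missing. Both lines with an introduced histone thus share the knock-out, and whether each line is a single clone is not given in the sources used here.

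Each line was hybridised to 1 single-colour array, so no difference below has a replicate check, no test between lines was possible, and no p-values are given. Precision is limited by this number of arrays. The wild-type and full-length arrays shared slide 1 and scan 1. Slide 2, read in scan 2, held the truncated sample, so for comparisons that include it slide, scan and genotype cannot be told apart. A level below is the log2 of the scanner's processed signal relative to the array's 75th percentile, which was 1455, 1558 and 1039 in the order wild type, full-length and truncated. Differences were taken only between arrays within a probe. Calling a probe the brighter of a gene only says which probe is meant, and signals summed over marker probes are descriptions. A difference of 1 or more on this log2 scale, which is 2-fold, was called higher or lower. Where a probe was well above background on only 1 of the 2 arrays, the fold is a lower limit, written as at least so many fold, set by the dim probe's own level or the lowest level among probes well above background on the dim array (-7.20, -7.29 and -7.60 in the same order), whichever was higher. H2AFZ, the symbol of the H2A.Z1 gene in the RefSeq name table, checks the genotype: its 2 probes stood at 5.87 and 6.17 in wild type, 0.81 and -0.31 in full-length and -0.21 and -0.85 in truncated cells. Both were far lower in the knock-out lines, and whether the probes also detect the introduced histone is not given in the sources used here.

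Cadherins and protocadherins bind their like on the neighbouring cell through calcium-dependent extracellular repeats, and claudins seal the tight junctions of epithelia. Integrins are pairs of an alpha and a beta chain that bind matrix proteins or immunoglobulin-type counter-receptors, and in leukocytes the beta 2 chain carries most of the adhesion to other cells. Syndecans are membrane proteoglycans that bind matrix and growth factors through heparan sulfate. Collagens, laminins, fibronectin, thrombospondins and tenascin form the matrix itself and are made mainly by mesenchymal, endothelial and epithelial cells, with little made by lymphocytes.

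Fewer member probes than probes in general were detected. Well above background on any array were 110 of 203 matched probes (54.2%), against 32701 of all 43590 probes (75%). The share was 43.8%, 37.9% and 44.3% on the wild-type, full-length and truncated arrays, against 69.7%, 68.7% and 72.6% of all probes. No probe was well above background for 18 genes, among them CDH1 (E-cadherin, the epithelial cadherin), CDH5 (the endothelial cadherin), COL12A1, COL4A2, ITGA8, ITGB5, LAMA1, LAMB4 and PCDH15. The collagens gave the most detected probes, with 28, 22 and 25 of 73 on the 3 arrays, and the 10 integrin genes gave 16, 17 and 17 of 22.

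**Figure D1:**
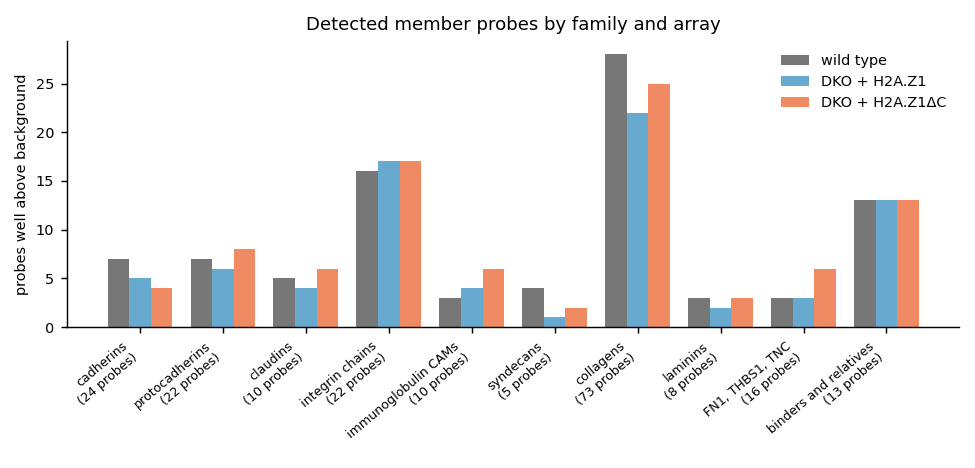
Number of probes well above background (y axis) for each group of member genes (x axis, with the number of matched probes in brackets) on the wild-type, full-length and truncated arrays (grey, blue and orange bars, 1 array each). Cadherin probes number 7, 5 and 4, syndecan probes 4, 1 and 2, and collagen probes 28, 22 and 25.

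Members were detected on all arrays less often than the probes of the array as a whole. Of the 110, 67 (60.9%) were well above background on all 3 arrays, against 88.7% of the 32701 probes detected anywhere. On the wild-type array alone were 14 (12.7%, against 1.80% of all), on the truncated array alone 15 (13.6%, against 4.87%) and on the full-length array alone 2 (1.82%, against 0.691%). Each pair of arrays held 4 (3.64%), against 0.670% of all for wild type with full-length, 1.78% for wild type with truncated and 1.49% for full-length with truncated. Detection on the wild-type or on the truncated array alone was thus the most frequent pattern among members not seen everywhere. The truncated array, on its own slide and scan, had detected probes down to a level of -7.60, against -7.20 and -7.29 on the others. Of the member probes detected there alone, only those of ALCAM and CDH11 had a limit of at least 2-fold over wild type. The remaining limits over wild type were at most 1.97-fold (FN1).

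Of the probes measured on both arrays of a comparison, members reached the 2-fold threshold more often than probes in general. In full-length against wild-type cells 8 of 71 did (11.3%, against 3.67% of all probes): 2 were higher (2.82%, against 1.43%) and 6 lower (8.45%, against 2.24%). In truncated against full-length cells 18 of 71 did (25.4%, against 5.32%): 7 were higher (9.86%, against 3.64%) and 11 lower (15.5%, against 1.68%). With the series matrix values, whose full-length column differs from the scanner file, that split turned to 9 higher and 6 lower. In truncated against wild-type cells 11 of 71 did (15.5%, against 7.62%): 4 were higher (5.63%, against 3.86%) and 7 lower (9.86%, against 3.77%).

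Among probes measured on a single array of the pair, the share of members with a limit of at least 2-fold was closest to that of all probes in full-length against wild-type cells. In full-length against wild-type cells 3 of 24 were higher (12.5%, against 189 of all 1885 such probes, or 10%) and 6 lower (25%, against 21.8%). In truncated against full-length cells 7 of 25 were higher (28.0%, against 15.7%) and 4 lower (16.0%, against 8.13%). In truncated against wild-type cells 6 of 37 were higher (16.2%, against 14.4%) and 14 lower (37.8%, against 17.9%).

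Several probes target the same gene, so genes were also counted. In full-length against wild-type cells 6 of 40 member genes differed by 2-fold (15.0%, against 3.37% of all genes), 1 higher (against 1.19%) and 5 lower (against 2.18%). In truncated against full-length cells 8 of 41 did (19.5%, against 4.67%), 4 higher (against 3.12%) and 4 lower (against 1.56%). In truncated against wild-type cells 6 of 41 did (14.6%, against 6.92%), 2 higher (against 3.35%) and 4 lower (against 3.57%). The median difference over member genes was -0.20, 0.35 and 0.07 in the order of these comparisons, beside -0.02, 0.02 and 0.00 over all genes. With the series matrix in place of the full-length scanner file, the first of these medians was 0.00 and the second 0.01.

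Because members were dim, the counts were also split by brightness, a choice made after the data were seen. Among probes dimmer than the median of those detected on all 3 arrays, 15.4%, 30.8% and 17.3% of 52 member probes reached 2-fold in the 3 comparisons, against 5.87%, 8.64% and 11.5% of all such probes. Among the 19 brighter member probes 0 did so in the first comparison, where 1.43% of all such probes did, and 2 in each of the others (10.5%, against 1.90% and 3.58%). Both of these were probes of ITGB2. With 19 probes, the 0 of the first comparison cannot be told from the share over all such probes. The 19 include probes of SDCBP, ITGB1BP1, ITGB1BP3 and CLDND1, genes that bind or resemble the families by name. Normexp, a model-based background correction whose offset compresses dim signals, was run as an alternative. Of 20 called gene differences 10 stayed at 2-fold or more when it was scaled to the 75th percentile and 13 with quantile normalization, and of 40 limits of at least 2-fold 12 did so under each. Normexp values below are log2 differences or limits under these settings in that order, given where a named call ended or the size moved far. A limit is called lost where another setting put the level of the array with detection below the level that sets the limit. Its sign then turned, but no reverse change was measured.

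**Figure D2:**
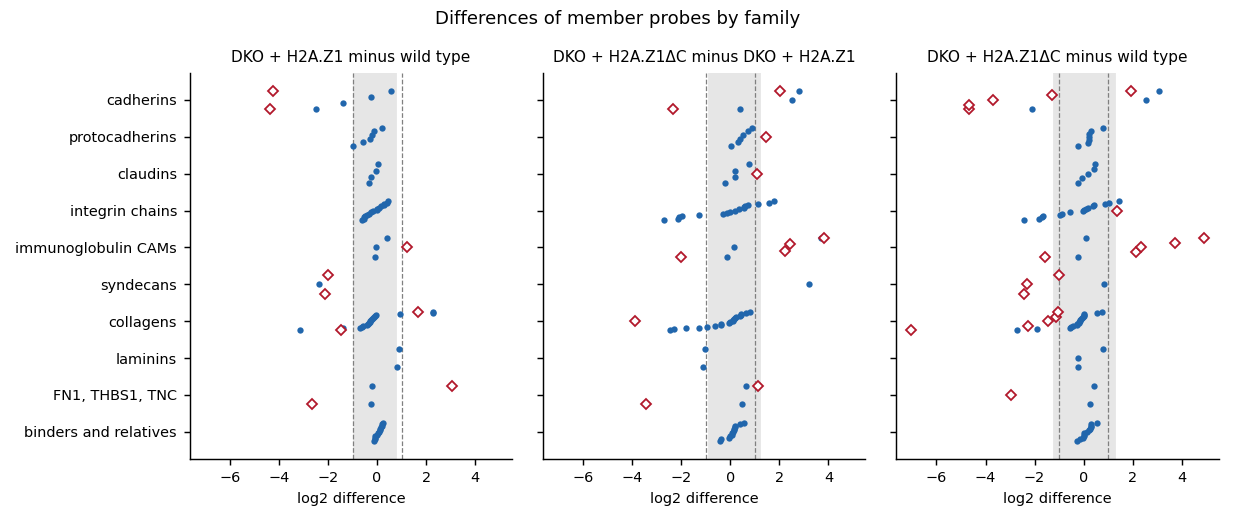
Log2 difference (x axis) of each member probe in the 3 comparisons, by group of genes (y axis). Blue points are probes well above background on both arrays, open red diamonds are lower limits of at least 2-fold for probes well above background on 1 array, the grey band holds the central 95% of all probes, and dashed lines mark -1 and 1. Cadherins, integrins, syndecans and collagens hold most blue points outside the band, while the 13 probes of binders and relatives all lie within -1 to 1.

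For the full-length sample a second set of values exists in the series matrix. The matrix values of the other samples are the scanner signals times a constant, 1.07 and 1.53, but those of the full-length sample are not a multiple of its scanner signal, and their source array is unknown. Of the 77 member probes that the full-length scanner array detected, 15 (19.5%) differed by 1 or more between the sources, against 4.91% of all probes. Matrix levels are therefore given beside the full-length values of the genes with a called difference or limit that rests on them.

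**Figure D3:**
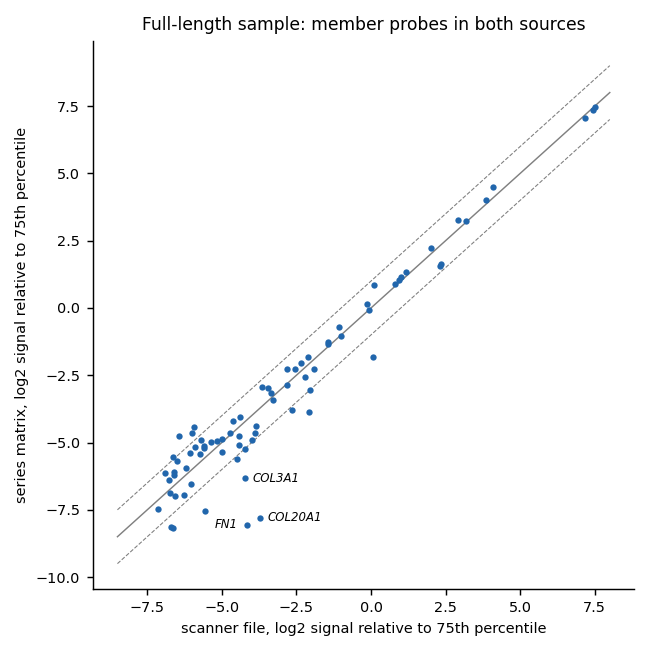
Level of the 77 member probes detected in the full-length scanner file, from that file (x axis) and from the series matrix (y axis), both as log2 signal relative to the 75th percentile. The solid line marks equality and the dashed lines a difference of 1. COL20A1 (-3.71 against -7.80), 1 probe of FN1 (-4.16 against -8.05) and 1 of COL3A1 (-4.22 against -6.33) are named and lie farthest below the line.

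Among the cadherins, 3 genes were lower in the knock-out lines and 1 was higher in truncated cells. CDH2, N-cadherin of neural and mesenchymal cells, had a level of -2.92 on the wild-type array by each of its 2 probes. On the full-length array they stood at -7.18 and -8.54, and on the truncated array at -8.51 and -9.40, none of these well above background. Both probes thus detected CDH2 in wild-type cells alone. It was at least 19.1-fold and 20.7-fold lower in full-length cells and at least 25.5-fold and 25.6-fold lower in truncated cells. The matrix levels of the full-length sample, -7.85 and -7.75, were low too. Normexp reduced the limits but left each past 2-fold, with -1.78 and -1.61 for the first probe in full-length cells and -1.40 and -1.78 in truncated cells.

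CDH4, R-cadherin of the retina and nervous system, was also lower in both knock-out lines than in wild type. Its brighter probe stood at -3.78 in wild type, -6.27 in full-length (-6.96 in the matrix) and -5.90 in truncated cells, which made it 5.63-fold and 4.34-fold lower than in wild type. Its other probe was well above background in wild type alone (-6.32) and gave a limit of at least 2.41-fold lower in truncated cells. This limit was lost with normexp and the 75th percentile (0.20 on the log2 scale). The same setting gave -0.79 for the brighter probe in truncated against wild-type cells, short of 2-fold. CDH20, a type II cadherin, had a single probe at -3.81 in wild type and -5.18 in full-length cells (-4.96 in the matrix), and at -7.51, not well above background, in truncated cells. That was 2.60-fold lower in full-length cells and at least 13.0-fold lower in truncated cells, with a step of at least 5.01-fold between the knock-out lines. Normexp gave -0.73 and -0.61 for full-length cells, -0.87 and -1.23 for truncated cells against wild type, and -0.14 and -0.62 for the step, so of these only 1 stayed past 2-fold.

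CDH11, the type II cadherin of mesenchyme and bone-forming cells, went the other way and was high in truncated cells. Its first probe stood at -6.50, -5.94 and -3.42 and its second at -6.28, -6.51 and -3.73 in wild-type, full-length and truncated cells. The remaining probe was well above background on the truncated array alone, at -5.25. Over the 2 measured probes the truncated array was higher than full-length by a log2 difference of 2.65 ± 0.19 (SD over n = 2 probes of 1 array pair), or 6.27-fold, and higher than wild type by 2.82 ± 0.38, or 7.04-fold. With the matrix values the first of these was 1.47, since the full-length levels were then -4.41 and -5.69. Normexp gave 1.39 and 1.06 for it and 1.37 and 1.16 against wild type. CDH10 was the other cadherin detected, on the full-length array only, at -6.65, and its matrix level there was -8.16.

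The other junction genes had no measured difference of 2-fold, with few probes measured. Of the protocadherins, which guide contacts between neurons, 7 of 10 genes were detected. In the 3 comparisons 6, 6 and 7 of their probes were measured on both arrays, and none differed by 1 or more. Over all probes 3.67%, 5.32% and 7.62% did, so with so few probes 0 calls cannot be told from these shares. The largest protocadherin difference was that of PCDHA6, at 1.09, 0.11 and 0.84. Its full-length value differed from wild type by -0.98, just short of the threshold, and its matrix level in the full-length sample was 0.85. PCDHA and PCDHG genes share constant exons with the other genes of their clusters, so their probes may not tell them apart. A PCDHGA2 probe stood at -6.62 in wild type, -7.30 in full-length cells, where it was not well above background, and -5.83 in truncated cells, at least 2.76-fold higher than in full-length cells. Its matrix level was -6.78, and normexp gave 0.81 and 0.33 for this limit, short of 2-fold. CLDN3, an epithelial claudin, stood at -2.85, -2.82 and -3.05. CLDN5, the endothelial claudin, gave differences of -0.20 ± 0.14, 0.38 ± 0.33 and 0.18 ± 0.25 in the 3 comparisons (SD, n = 3 probes). CLDN1, another epithelial claudin, stood at -6.65, -7.28 (not well above background) and -6.19, a limit of at least 2.12-fold between the knock-out lines, but the matrix put the full-length sample at -6.30 and normexp gave 0.66 and 0.18.

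ALCAM, an immunoglobulin-type molecule that binds itself and CD6 on T cells, was much brighter in truncated cells. Its 4 probes stood between -9.52 and -8.91 in wild type, none well above background. In full-length cells they stood at -7.73, -6.00, -9.01 and -8.52, with only the second well above background, and on the truncated array at -3.49, -2.29, -4.86 and -5.08, all well above it. Each probe was highest in truncated cells. Against wild type the limits were at least 13.1-fold, 30.0-fold, 5.07-fold and 4.34-fold, and against full-length cells the measured second probe was 13.0-fold higher. With the matrix level of that probe (-4.65) the last difference was 2.35 in place of 3.70 on the log2 scale, and with normexp 2.26 and 1.99. Against wild type normexp gave 2.53 and 2.36 for that probe and 1.84 and 1.62 for the first, while the last 2 probes kept 2-fold with the 75th percentile (1.12 and 1.05) and not with quantile normalization (0.81 and 0.72). NCAM1, the neural cell adhesion molecule that also marks natural killer cells in humans, had 6 probes that disagreed. Its brightest stood at -0.99, -1.02 and -0.90, whereas another went from -6.00 and -5.59 to -8.67, at least 4.03-fold lower in truncated than in full-length cells. That limit was lost with normexp and the 75th percentile (0.21 on the log2 scale).

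**Figure D4:**
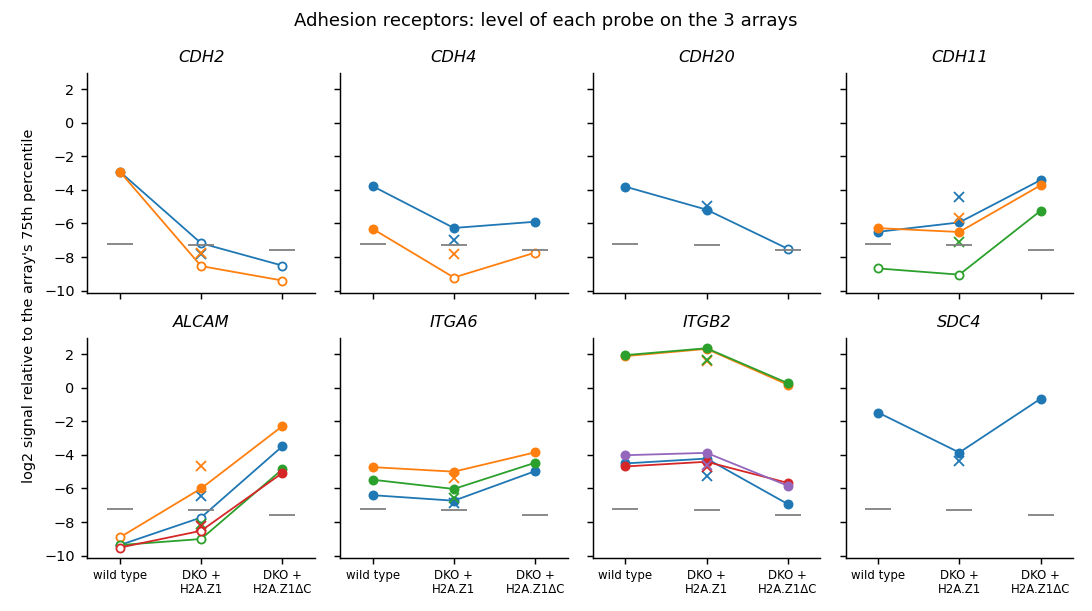
Level (y axis, log2 signal relative to the array's 75th percentile) of each probe of 8 adhesion receptor genes on the 3 arrays (x axis). Lines join the values of a probe, filled points are well above background and open points are not, crosses are the series matrix values of the full-length sample, and grey dashes mark the lowest level well above background on each array. CDH2 is detected in wild type alone, the 4 ALCAM probes are highest in truncated cells, and all 5 ITGB2 probes are lowest there.

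Among the integrins, ITGB2 differed most. It encodes the beta 2 chain of the leukocyte integrins, such as LFA-1. Its 2 bright probes stood at 1.88 and 1.94 in wild type, 2.31 and 2.35 in full-length and 0.18 and 0.27 in truncated cells. The other 3 lay between -4.69 and -4.02, between -4.41 and -3.88, and between -6.93 and -5.67. All 5 probes were lowest on the truncated array. There ITGB2 was 4.08-fold lower than in full-length cells (a log2 difference of -2.03 ± 0.52, SD, n = 5 probes) and 3.29-fold lower than in wild type (-1.72 ± 0.51). The matrix values gave -1.31 for the first difference. Normexp correction gave -0.90 for the second when scaled to the 75th percentile, short of 2-fold.

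ITGA6, the alpha 6 chain that binds laminin, differed in the opposite direction. Its 3 probes stood at -6.40, -4.73 and -5.48 in wild type, -6.73, -5.00 and -6.03 in full-length and -4.97, -3.85 and -4.47 in truncated cells. The truncated array was thus the highest for every probe, by 1.49 ± 0.31 over full-length and 1.11 ± 0.29 over wild type on the log2 scale (SD, n = 3 probes), or 2.81-fold and 2.16-fold. The matrix values gave 1.84 for the first of these. Normexp gave 0.88 and 0.52 for the difference from full-length cells and 0.66 and 0.41 for that from wild type, all short of 2-fold. ITGA9, an alpha chain that binds tenascin and other ligands, was not well above background in wild type (-8.93) and stood at -6.57 and -5.85 in the knock-out lines, at least 2.55-fold higher in truncated cells than in wild type, though normexp gave 0.73 and 0.35.

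The remaining integrin chains differed by less than 2-fold in all comparisons. ITGB1, the beta 1 chain that pairs with many alpha chains and with ITGA6, stood at 3.86, 3.86 and 3.85 by its brighter probe. ITGA3, which also binds laminin, stood at 2.42, 2.02 and 1.88 by its brighter probe and differed by -0.71 ± 0.25 between truncated and wild-type cells (SD, n = 2 probes). ITGAV, which binds vitronectin and fibronectin, was lower in full-length cells by -0.50 ± 0.02, and ITGB3, a partner of ITGAV, was 0.40 higher in truncated than in wild-type cells. ITGA1 stood at -5.98, -5.90 and -5.56.

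Syndecans split by gene. SDC2, the syndecan of mesenchymal cells, was detected by all 3 of its probes in wild type, at -5.26, -6.57 and -5.15. On the full-length array the probes stood between -9.44 and -9.25 and on the truncated array between -9.75 and -9.53, none well above background, and the matrix levels of the full-length sample lay between -8.08 and -7.82. SDC2 was thus seen in wild-type cells alone, with limits of at least 5.43-fold lower in truncated and 4.39-fold lower in full-length cells by its brightest probe. With normexp no limit of SDC2 stayed at 2-fold. The brightest probe gave -0.82 and -0.66 in full-length cells and -0.22 and -0.62 in truncated cells. The limit of the dimmest probe in truncated cells was lost with the 75th percentile (0.23). SDC4, the widely expressed syndecan of focal adhesions, had 1 probe, with levels of -1.48, -3.86 and -0.66 on the wild-type, full-length and truncated arrays. Full-length cells were therefore the lowest, 5.20-fold below wild type and 9.18-fold below truncated cells, and the matrix level of -4.37 was lower still. SDC3, a neural syndecan, was detected on the truncated array only, at -7.29, against -7.88 in wild type and -8.22 in full-length cells. It gave no limit of 2-fold.

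Collagens held both the largest single limit and the strongest dependence on the source of the full-length values. COL20A1, a fibril-associated collagen, had 1 probe, at -0.56 in wild type, -3.71 in full-length and -7.70, not well above background, in truncated cells. It was at least 131-fold lower in truncated than in wild-type cells and, in full-length cells, 8.87-fold lower than in wild type. With normexp the first of these was -3.32 and -3.65 on the log2 scale in place of a limit of -7.04, a far smaller size in the same direction. The matrix level of the full-length sample was -7.80, as low as the truncated array, so the step between the knock-out lines (at least 14.8-fold) was not seen with it. COL22A1, a collagen of tissue junctions, had the same order by its brightest probe, at -1.18, -2.65 and -3.91, which was 6.62-fold lower in truncated than in wild-type cells. Its matrix level in the full-length sample, -3.78, again lay near the truncated value. Normexp gave -1.89 and -2.07 for the difference of truncated from wild-type cells in place of -2.73. For full-length against wild-type cells it gave -0.92 and -0.82 in place of -1.43 (2 probes). Between the knock-out lines it gave -0.65 and -0.88 in place of -1.26. The last 2 calls of COL22A1 thus fell short of 2-fold. Its other probes were well above background in wild type at -5.80 and -5.32 and not on the truncated array. For the first of them the limit in truncated cells was lost with normexp and the 75th percentile (0.09 on the log2 scale).

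COL1A2, a chain of collagen I, the main fibrous collagen of connective tissue, was highest on the full-length scanner array. Its brightest probe stood at -2.23, 0.06 and -2.23, and another at -4.34, -2.07 and -4.54. Full-length cells were higher than wild type by 1.83 ± 0.78 (SD, n = 3 probes), or 3.54-fold, and the difference of truncated from full-length cells was -1.53 ± 1.01 over 4 probes, or 2.88-fold lower. In the matrix the same 2 probes stood at -1.82 and -3.87, and the differences became 0.22 and 0.18, so neither call held there and the second changed direction. With normexp and the 75th percentile the second was -0.78. COL3A1, a chain usually made together with collagen I, had probes that disagreed: of 10, 3 were detected, and they stood at -4.14, -4.22 and -6.03, at -5.32, -5.70 and -5.77, and in wild type alone at -6.45. The mean of the first pair was lower in truncated than in wild-type cells (a difference of -1.17 ± 1.02, SD, n = 2 probes), with a spread nearly as large as the difference, and normexp gave -0.12 and -0.46. For the probe seen in wild type alone, and for 1 of the COL14A1 probes that follow, the limit in truncated cells was lost with normexp and the 75th percentile (0.08 on the log2 scale for each).

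COL14A1, another fibril-associated collagen, was detected by 3 dim probes in wild type alone, between -6.77 and -6.54, while a brighter probe stood at -1.94, -2.10 and -1.90 on all 3 arrays. Most other collagens did not reach 2-fold. COL2A1, the cartilage collagen, had the brightest collagen probe, at 3.38, 3.19 and 3.31, while each of its other 5 probes was well above background on at most 1 array. COL9A2, also of cartilage, gave -0.38 ± 0.18, 0.23 ± 0.19 and -0.15 ± 0.03 in the 3 comparisons (SD, n = 3 probes). COL9A3 stood at -3.60, -3.67 and -2.84 and its matrix level in the full-length sample was -2.92. COL8A1, at -4.01, -4.63 and -3.98, was lowest in full-length cells. COL4A1, of basement membranes, was detected in the knock-out lines only, at most at -6.60. Its limits over wild type were at most 1.52-fold, so no 2-fold difference was shown. COL5A1, COL6A3 and COL18A1 differed by less than 2-fold, at most by -0.51.

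**Figure D5:**
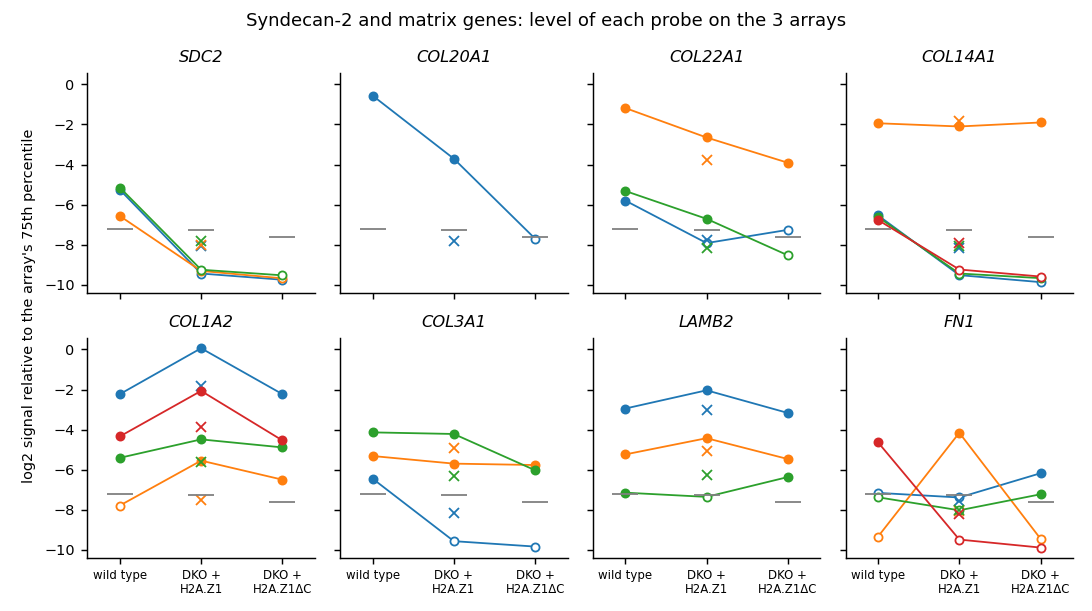
Level (y axis, log2 signal relative to the array's 75th percentile) of each detected probe of SDC2 and 7 matrix genes on the 3 arrays (x axis). Filled points are well above background and open points are not, crosses are the series matrix values of the full-length sample, and grey dashes mark the lowest level well above background. SDC2 and 3 COL14A1 probes are detected in wild type alone, and all 4 COL1A2 probes peak on the full-length scanner array, with lower matrix values.

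LAMB2, a laminin beta chain of basement membranes, differed between the knock-out lines. It stood at -2.95, -2.04 and -3.17 by its brightest probe and at -5.24, -4.43 and -5.47 by the next. Both were highest in full-length cells, and the difference of truncated from full-length cells was -1.09 ± 0.06 (SD, n = 2 probes), or 2.12-fold lower. Its last probe had the other order, at -7.15, -7.36 and -6.37, and the difference was -0.26 with the matrix values and -0.39 and -0.67 with normexp. FN1, fibronectin, had 8 probes and none was well above background on all 3 arrays. A probe was seen in wild type alone at -4.64, another on the full-length array alone at -4.16, and 2 on the truncated array alone at -6.18 and -7.23. The matrix level of the full-length probe was -8.05, with which its limits were lost. Each array was thus the highest for some probe, with limits of at least 6.27-fold (wild type over full-length), 8.21-fold (full-length over wild type) and 2.15-fold (truncated over full-length). Normexp gave -0.76 and -0.60 for the first of these limits, 0.99 and 1.02 for the second, and 0.61 and 0.12 for the last, on the log2 scale. THBS1, thrombospondin 1, stood at -6.22, -6.43 and -5.81 by its brightest probe, and 2 further probes were detected in truncated cells alone, at -6.37 and -6.64. TNC, tenascin C, stood at -5.96, -6.19 and -5.70.

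Probes of the same member gene often disagreed in this way. On the 3 arrays, 64.1%, 74.3% and 69.2% of member genes with several probes and at least 1 well above background had another probe that was not, against 15.4%, 14.6% and 15.4% of all such genes. These shares were not matched for brightness or for probes per gene, and member probes were detected less often than probes in general. Up to 10 probes carried the name of 1 member gene, and which exons they target is not given in the sources used here.

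The symbol rule also took in 5 genes that bind or resemble these proteins by name. None of their 13 probes reached 2-fold, where 3.67%, 5.32% and 7.62% of all probes did in the 3 comparisons. With 13 probes, the absence of calls cannot be told from these shares. SDCBP, the adaptor syntenin that binds syndecan tails, differed by 0.47 ± 0.12 between truncated and full-length cells, the truncated line being higher (SD, n = 2 probes). ITGB1BP1, which binds the integrin beta 1 tail, gave 0.11 ± 0.07, 0.17 ± 0.04 and 0.28 ± 0.05 in the 3 comparisons (SD, n = 3 probes). CLDND1, a claudin-like membrane protein, and ITGB3BP, a kinetochore protein also called CENP-R, differed by less than 0.5 throughout. ITGB1BP3, whose mammalian counterpart is a nicotinamide riboside kinase of muscle, had levels between 7.18 and 7.60 over its 3 probes and arrays. All 13 probes of these 5 genes were well above background on every array.

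The place of the changed genes in the gene order was examined for shifts shared with neighbours. Up to 10 measured genes were taken on each side, 12 to 20 in all. Their median difference lay between -0.15 and 0.13 in both comparisons with wild type for all but 3 of the 20 genes with a called difference or limit. The exceptions were COL14A1 (-0.39 in full-length and -0.46 in truncated cells), COL22A1 (-0.37 and -0.31) and CDH11 (-0.53 and -0.56). COL22A1 differed by more than its neighbours did, and CDH11 was higher in truncated cells where its neighbours were lower. Between the knock-out lines the medians lay between -0.19 and 0.10 for all 20.

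Other genes of adhesion and matrix assembly were read from a list chosen by function. Of its 94 genes, 46 were named on the array and 35 were detected. In full-length against wild-type cells 0 of 29 were higher by 2-fold (against 1.19% of all genes) and 2 lower (against 2.18%). Between the knock-out lines 1 of 31 was higher in truncated cells (against 3.12%) and 0 lower (against 1.56%). Truncated against wild type, 1 of 29 was higher (against 3.35%) and 2 were lower (against 3.57%). With so few genes these counts cannot be told from the shares over all genes. The median differences were -0.10, -0.02 and 0.06. These values cover genes measured on both arrays of a comparison. Well above background on the truncated array alone were VCL (probes at -6.44, -5.41 and -6.68), FBLN1 (-6.74) and HAPLN1 (-6.90). AGRN was so in wild type alone (-5.64), and LUM and VTN in the knock-out lines alone. For FBLN1, HAPLN1 and the VTN probe seen in both knock-out lines, levels on the 3 arrays lay within 2-fold of each other. They were -7.45, -7.23 and -6.74 for FBLN1, -7.48, -7.52 and -6.90 for HAPLN1, and -6.96, -6.71 and -6.84 for VTN. P4HA2, a prolyl 4-hydroxylase subunit, stood at -3.40, -4.84 and -4.80 by its brighter probe and was 4.53-fold lower than wild type in the full-length line and 4.60-fold lower in the truncated line over 2 probes. The matrix levels of its probes in the full-length sample, -4.24 and -5.84, lay between the scanner levels of -4.84 and -6.83 and the wild-type levels of -3.40 and -3.90. With them the full-length difference was smaller, in the same direction. P4HA1 and P4HB, other prolyl 4-hydroxylase subunits, differed by between -0.11 and 0.14 in all comparisons. PLOD1, a lysyl hydroxylase, stood at -1.01, -1.21 and 1.43, 5.44-fold higher in truncated than in wild-type cells, but its matrix level in the full-length sample was 0.89. POSTN, the matrix protein periostin, stood at -5.89, -7.01 and -7.41, lower than in wild type in both knock-out lines. The integrin-linked TLN1 (talin 1), at 0.61, 0.61 and 0.11 by its brightest probe, and the hyaluronan receptor CD44, at -2.10, -1.59 and -1.38, did not reach 2-fold.

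Markers of the line and of other cell types were read in the same way. All 13 named B-cell markers of a list of 20 were detected on at least 1 array, PAX5, CD79B, EBF1, BTK and SYK among them, with a summed signal, as multiples of the 75th percentile, of 194, 217 and 213 on the 3 arrays. Among them IRF4 was higher than in wild type in both knock-out lines (1.12 and 1.36 on the log2 scale), and IRF8 was lower in full-length cells (-1.08). With the matrix levels of the IRF8 probes, 1.54 and -0.64 against 2.06 and 0.21 in wild type, that difference was under 2-fold. Of 10 named fibroblast or mesenchyme markers, 3, 3 and 4 were detected, with a summed signal of 0.0982, 0.120 and 0.0973, and DCN, PDGFRA, PRRX1, TAGLN, TCF21 and TWIST2 were not detected on any array. Endothelial (1 of 3 detected), erythroid (1 of 2), macrophage (4 of 4) and epithelial markers (0 of 1) summed to at most 0.611, 0.0422, 0.853 and 0.00275. T-cell markers (5 of 6) summed to 93.3, 80.1 and 54.9, with CD4 not detected. CD3D gave nearly all of each sum, with probes at 6.38 and 3.29, 6.15 and 3.09, and 5.62 and 2.50 on the 3 arrays. In wild type the detected probes of CD3E, CD8A, CD28 and GATA3 lay between -6.32 and -4.60. CD3E was brightest on the full-length array, by 2.09 on the log2 scale over wild type (0.78 and 3.41 by probe). Its matrix levels, -3.43 and -0.33, lay above the scanner levels of -4.70 and -2.30. The part of other cells in the member differences was not tested, and in bulk RNA fewer cells with a transcript and less transcript per cell cannot be told apart.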

How the data were processed

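Total RNA was labelled with Cy3 and read on Agilent chicken arrays, 1 per cell line. Per the labels' protocols, RNA came from a blood kit with globin removal and a low-input labelling kit. Agilent Feature Extraction 11.5.1.1 quantified a design annotated to galGal3, per the file headers, and the deposited processed signal is a linear intensity, background-subtracted and detrended within each array, without scaling between arrays. How the matrix intensity values were made is not given in the sources used here.

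Control spots and 13 probes with a spot flagged on any array were left out, none of them a member; 0 spots were saturated. Values were log2 processed signals minus the array's 75th percentile, with repeated spots averaged (SD between 5 spots 0.066 to 0.074 for 34 or 35 probes well above background). Gene values are means over probes well above background on both arrays, and the SD given is over probes, not over samples. RefSeq accessions were named through a table of assembly GRCg7b (11929 probes, 27.4%, for 5381 genes), used only for names and gene order. Genes with a called difference or limit were named, with the brightest gene of each family. The members, lists and rules were chosen with earlier results of these data known. Each group has 1 array, so replicates could not be left out and slide could not be fitted. Alternatives were median scaling, quantile normalization, normexp (offset 50, on the median spot signal, limma 3.58.1) with either scaling, the matrix values, other filters and thresholds, and the brightest probe per gene. The calls were tested on simulated data. There were 0 unused per-sample columns.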

Additional observations from a re-analysis of the deposited data

How the results depend on the processing

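Of 20 called gene differences, 20 stayed at 2-fold or more in the same direction under median scaling and under quantile normalization, 19 with the brightest probe per gene, 16 with the matrix values, 13 with normexp plus quantile normalization and 10 with normexp at the 75th percentile. Of 40 limits of at least 2-fold, 39, 38, 34, 12 and 12 did so with median scaling, quantile normalization, the matrix values and the normexp settings. With the matrix values, the truncated against wild-type calls could not move, because both columns are constant multiples of the scanner signals. These were 6 of the gene differences and, of the limits, 6 higher and 14 lower. Genes measured by 1 probe could not move with the brightest probe per gene. The offset of normexp compresses dim signals, which most members are. The counts of changed member probes were 8, 18 and 11 in the order of the report. Normexp with the 75th percentile gave 8 (4 higher and 4 lower, in place of 7 and 11) and 5 in the last 2 comparisons, and with quantile normalization 7 and 5. No background filter gave 17, 29 and 31. Requiring detection on all arrays gave 5 in the first comparison. The 1.5-fold threshold gave 16 in the first and 18 in the last, and genes in place of probes 8 and 6 in the last 2. Over all probes the counts of 1072, 1570 and 2255 became 487, 764 and 1121 with normexp and the 75th percentile, 447, 649 and 1099 with quantile normalization added, and 3258, 4849 and 6306 at 1.5-fold. The matrix values gave 2093 and no filter 1671 in the first, and genes numbered 142, 198 and 295. The share of higher probes among all changed in truncated against full-length cells was 68.5%, but 57.9%, 55.4% and 79.6% under median scaling, under quantile normalization and under normexp at the 75th percentile. For truncated against wild type it was 50.6%, and 61.0% with the last setting, which moved the median of all probes to 0.13 and 0.12 in these comparisons. The medians of member genes, -0.20, 0.35 and 0.07, became 0.00 and 0.01 in the first 2 comparisons with the matrix values. They were -0.05, 0.06 and 0.00 with normexp plus quantile normalization. In the last comparison normexp at the 75th percentile gave 0.24. With the matrix values 1 gene difference changed sign, that of COL1A2 between the knock-out lines (0.18). Lost with them were 4 limits: FN1 and COL1A2 against wild type (-0.85 and -0.35), and COL20A1 and FN1 between the knock-out lines (0.21 and 0.45). No reverse change was measured for these limits. With normexp and the 75th percentile 7 limits were lost, among them NCAM1 between the knock-out lines (0.21). The others were for truncated cells against wild type: COL22A1 (0.09), COL14A1 (0.08), NCAM1 (0.27), COL3A1 (0.08), CDH4 (0.20) and SDC2 (0.23). The cause was not tested. No paired analysis was possible because each group has 1 array.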

Other observations

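Lumican (LUM), a matrix proteoglycan that regulates collagen fibrils, was singled out after its values were seen. Its 2 probes were not well above background in wild type (-9.12 and -7.96) and were so in both knock-out lines, at -4.53 and -6.31 in full-length and -5.39 and -6.55 in truncated cells. The matrix levels of the full-length sample were -7.89 and -7.01.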
